A study of Mus musculus with 16 samples.

Results

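The urea cycle and ammonia genes described here are Cps1, Ass1, Asl, Nags, Slc25a15, Gls2, Glul and Rhbg, 8 of the 22380 protein-coding genes of the mouse annotation. The genes were chosen by name, and every DNase hypersensitive site (DHS) overlapping a gene or the 20 kb on either side of it was assigned to that gene. DHS mark open chromatin, from which the DNA-cutting enzyme DNase I released many short fragments. Peaks of different groups sharing at least 1 bp were merged to a single region, which gave 52 regions at these genes among 51482 regions in the whole series.

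Nuclei were isolated from the liver of both sexes of the C57BL/6J strain (B6), the laboratory strain of the mouse reference genome, and of the CAST/EiJ strain (CAST), an inbred strain of wild-derived mice. All animals were 8 weeks old, the labels list no transgene or treatment, and 32 units of DNase I were used for the digestion. There were 16 libraries, 4 in each of the 4 combinations of strain and sex. The 4 libraries of a group were pooled by the authors before peaks were called, so that each group is a single list without replicate error. No test between groups was possible, and a difference is described only by its size.

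The urea cycle turns ammonia, a toxic product of amino acid breakdown, into urea that the kidney excretes. Periportal hepatocytes, which receive blood from the gut first, carry the cycle and the glutaminase that releases ammonia into it, whereas a thin layer of pericentral hepatocytes captures ammonia that escapes by making glutamine. Whole liver mixes these zones. A difference in the number of nuclei in which a site was open and a difference in how open it was in each nucleus therefore cannot be told apart.

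The lists differed in length and depth. They held 38751 peaks for B6 males, 26271 for B6 females, 39562 for CAST males and 24888 for CAST females. The genome-wide background under the peaks was 15.4, 13.9, 14.3 and 7.94 overlapping fragments in the same order. All 5 hepatocyte markers examined (Alb, Apoa1, Apob, Ttr and Tat) had a promoter DHS in each list, whereas none of 3 Kupffer cell markers and none of 4 markers of other tissues had a promoter DHS in any list. Of the other cell types of the liver, sinusoidal endothelium had a promoter DHS at 3 of 3 markers in B6 males, at 2 in B6 females, at 2 in CAST males and at 1 in CAST females. Of 3 stellate cell markers 1 was open in every list but female CAST, and of 3 bile duct markers 1 was open in each male list and none in the female lists. The part of these cells in the results below was not tested.

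The sequences at the sites on which the results turn are shown first. Each is 200 bp of the reference genome mm9, written 5′ to 3′ on the strand of the gene and centred on the DHS summit, the position with the most fragments, except for the promoter of Glul, where the 200 bp end just before the first annotated transcription start. The reference is the B6 genome, and CAST variants are not shown. Capitals mark matches on either strand to any of 8 short motifs of liver regulators, which were HNF4 (CAAAGTCCA), C/EBP (TTGCNNAA), FOXA (TGTTTAC), HNF1 (TTAATNATT), TCF/LEF (CTTTGAT), STAT5 (TTCNNNGAA), CREB (TGACGTCA) and the glucocorticoid receptor (ACANNNTGT), and none of the motifs is part of another. The first pair lies upstream of Cps1, where the −6.25 kb site (chr1:67163252-67163451) had the highest −log10 q-value of the gene on average over the lists and the −9.38 kb site (chr1:67160123-67160322) differed between lists.
Cps1 −6.25 kb: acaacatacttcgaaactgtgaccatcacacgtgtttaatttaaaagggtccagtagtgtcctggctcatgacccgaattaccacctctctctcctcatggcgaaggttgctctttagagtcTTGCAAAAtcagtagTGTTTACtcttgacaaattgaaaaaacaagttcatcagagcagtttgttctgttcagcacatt
Cps1 −9.38 kb: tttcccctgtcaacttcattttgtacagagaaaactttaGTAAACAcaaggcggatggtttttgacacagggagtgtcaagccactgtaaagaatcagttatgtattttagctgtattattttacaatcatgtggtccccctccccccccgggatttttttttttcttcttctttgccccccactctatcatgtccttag

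The strongest site nearest to Ass1 (chr2:31320153-31320352), the intronic site of Gls2 (chr10:127638987-127639186) and the strongest site of Slc25a15 (chr8:23501462-23501661, minus strand) are shown as the leading sites of their genes away from the first start.
Ass1 −5.47 kb: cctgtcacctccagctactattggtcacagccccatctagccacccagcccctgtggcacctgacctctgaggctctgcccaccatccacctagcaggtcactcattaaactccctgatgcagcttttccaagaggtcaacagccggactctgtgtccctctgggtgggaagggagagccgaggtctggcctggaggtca
Gls2 +7.57 kb: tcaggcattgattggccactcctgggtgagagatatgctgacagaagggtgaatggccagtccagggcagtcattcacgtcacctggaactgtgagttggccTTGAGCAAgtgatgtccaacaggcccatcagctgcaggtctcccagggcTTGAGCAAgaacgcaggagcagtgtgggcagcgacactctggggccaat
Slc25a15 +7.53 kb: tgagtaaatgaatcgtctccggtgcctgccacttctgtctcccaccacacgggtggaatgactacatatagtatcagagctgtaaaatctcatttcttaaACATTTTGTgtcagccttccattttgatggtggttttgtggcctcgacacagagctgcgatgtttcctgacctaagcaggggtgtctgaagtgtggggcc

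The last group holds sites that differed between strains or sexes, which are the promoter of Glul (chr1:155746874-155747073), the +3.78 kb site of Slc25a15 (chr8:23505215-23505414, minus strand) and a site downstream of Gls2 found in CAST lists (chr10:127658976-127659175).
Glul promoter: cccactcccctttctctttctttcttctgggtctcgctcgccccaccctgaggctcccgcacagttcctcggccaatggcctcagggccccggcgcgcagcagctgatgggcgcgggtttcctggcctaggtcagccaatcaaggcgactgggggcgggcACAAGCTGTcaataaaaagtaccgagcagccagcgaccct
Slc25a15 +3.78 kb: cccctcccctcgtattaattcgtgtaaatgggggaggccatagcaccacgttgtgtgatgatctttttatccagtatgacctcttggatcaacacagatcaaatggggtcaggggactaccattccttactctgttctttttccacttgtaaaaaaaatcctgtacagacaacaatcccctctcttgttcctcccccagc
Gls2 +27.56 kb: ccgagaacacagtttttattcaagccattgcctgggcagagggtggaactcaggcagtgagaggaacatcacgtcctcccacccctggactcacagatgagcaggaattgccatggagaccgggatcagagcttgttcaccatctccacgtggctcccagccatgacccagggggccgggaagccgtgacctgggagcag

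These windows differed in base composition as well as in motifs. The Glul promoter window was 64% G and C with 13 CpG dinucleotides, whereas both Cps1 windows were 41% G and C with 4 CpG at −6.25 kb and 2 at −9.38 kb. The −6.25 kb window of Cps1 held a C/EBP match at bases 123 to 130 and a FOXA match at bases 138 to 144, counted from its first base. The Gls2 intronic window held 2 C/EBP matches, and the Glul promoter window held a match to the glucocorticoid receptor motif. That window is not centred on the summit. The 300 bp around the Glul promoter summit held no match to any of the motifs, so this match is not in the counts that follow. Over the 300 bp around all summits, C/EBP matches occurred in 9 of the 52 regions (17.3%), against 17.2% of the 51482 regions of the series. FOXA matches were in 5 regions (9.62% against 6.59% of all), TCF/LEF in 5 (9.62% against 5.22%), the glucocorticoid receptor motif in 5 (9.62% against 9.41%), STAT5 in 2 (3.85% against 10.2%) and HNF4 in 1 (1.92% against 1.68%). HNF1 and CREB matches were in none of the 52 windows, against 3.12% and 1.05% of all windows. A match describes letters in the window and is not evidence of binding.

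The number of regions per gene, which was not corrected for gene length, ranged from 2 to 10. Ass1 and Asl had 10 regions each and Cps1 had 9, more than 95.7%, 95.7% and 94.1% of protein-coding genes, when each gene was given the same 20 kb on either side. Cps1 is 108234 bp long and Ass1 50466 bp, against 3965 bp for Nags. Slc25a15 had 7 regions, and Nags and Gls2 had 6 each. Glul and Rhbg had 2 each, a count that exceeded 39.1% of protein-coding genes. Of the 52 regions, 33 were nearest to a start of the assigned gene, and the other 19 were nearest to a start of a neighbouring coding gene such as Hmcn2, Crcp, Gusb, Tmem101, Mrps31, Spryd4 or Mip.

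**Figure D1:**
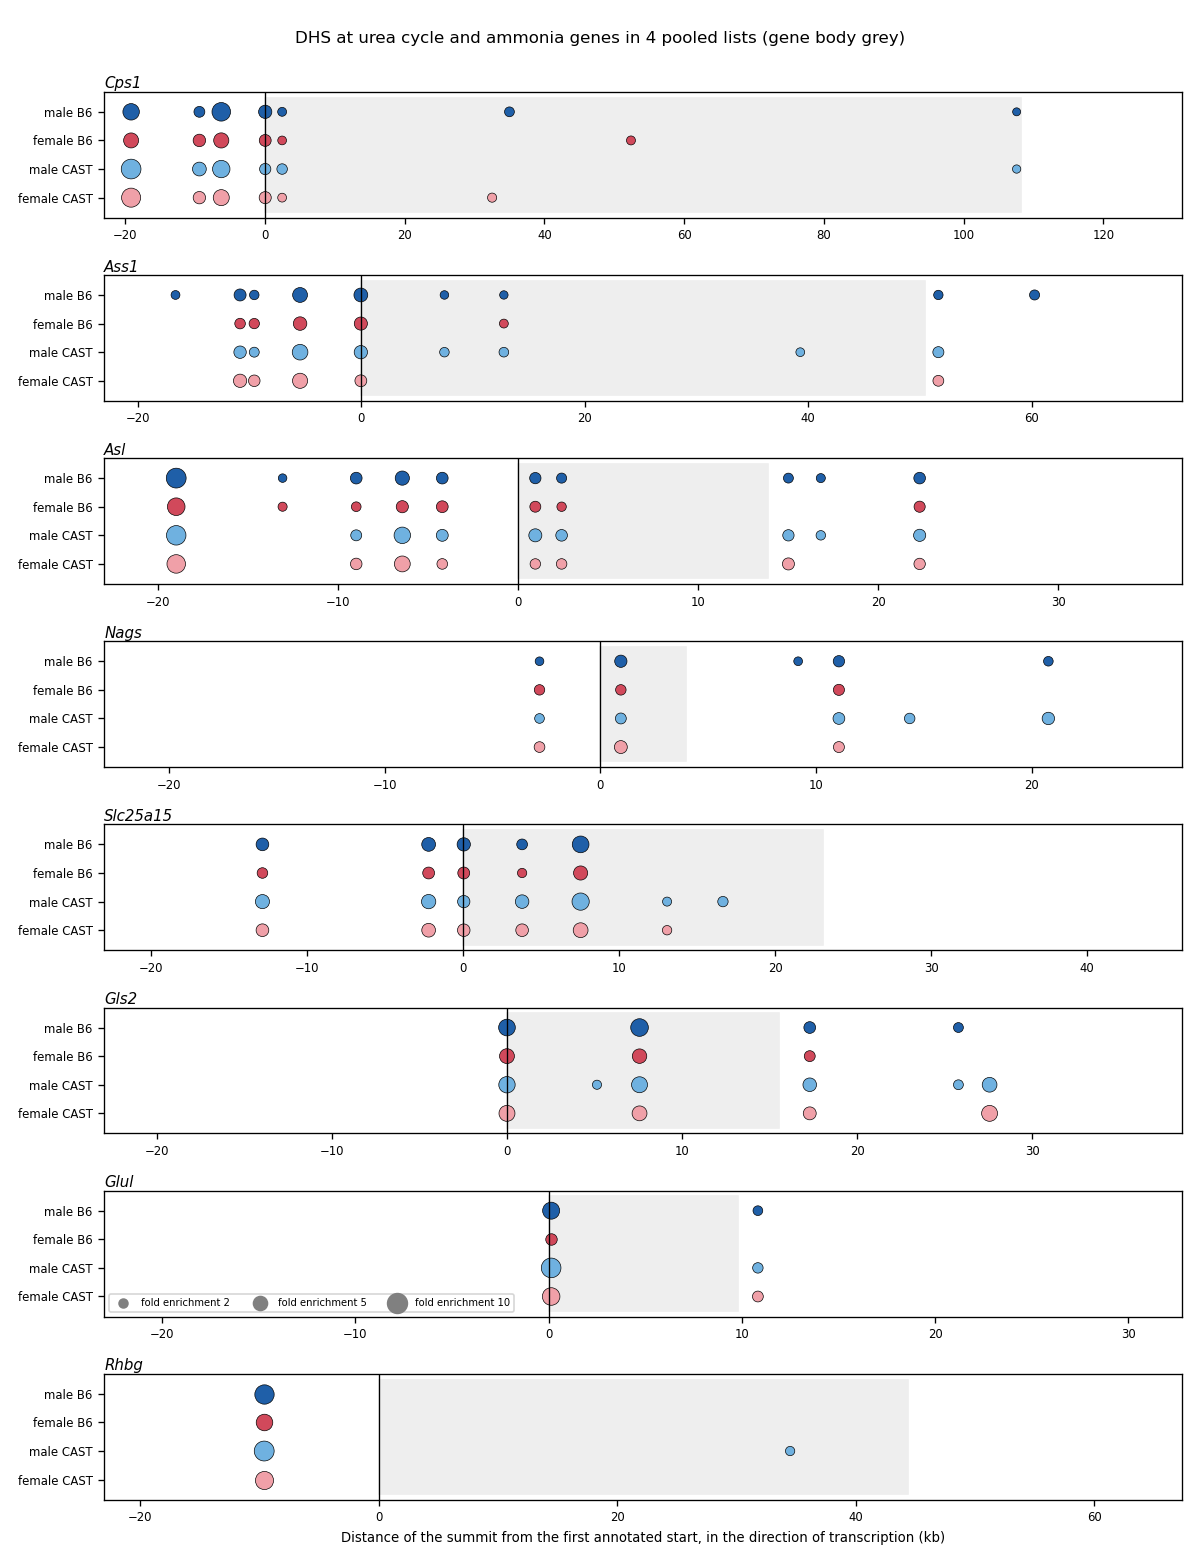
DHS around the 8 genes in the 4 lists. The horizontal axis is the distance in kb of a DHS summit from the first annotated start of the gene in the direction of transcription, the grey box is the gene body, each row is a list and the area of a point grows with its fold enrichment. Cps1, Ass1 and Asl carry 9 to 10 regions, Glul and Rhbg carry 2, and no point lies at the first start of Rhbg.

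Of the 52 regions, 29 (55.8%, Wilson 95% interval 42.3 to 68.4) were found in all 4 lists, against 35.6% of the regions of the series. A single list held 11 (21.2%), against 35.2% of the series, and of these 5 were in CAST males, 4 in B6 males, 1 in B6 females and 1 in CAST females. Of the 18102 single-list regions of the series, the CAST males held 7844, the B6 males 7336, the B6 females 1612 and the CAST females 1310. When peaks were joined only if at least 50% of both overlapped, every list held 47.5% of the regions and a single list 33.9%, against 28.2% and 45.3% of the series. Neighbouring regions of a gene are not independent, and intervals cover counting error only. Regions within 2.5 kb of a coding start were found in all 4 lists in 18 of 21 cases (85.7%, against 60.8% of such regions in the series), and distal regions in 11 of 31 cases (35.5%, against 24.5%).

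Few regions followed sex or strain by their presence. Both male lists and no female list held 5 regions (9.62%), against 9.38% of the series. These were at Cps1 (+107.57 kb), Ass1 (+7.45 kb), Asl (+16.81 kb), Nags (+20.77 kb) and Gls2 (+25.78 kb), with fold enrichments between 1.64 and 3.98, and when every list was cut to its 24888 highest-scoring peaks no such region remained. No region was held by both female lists and no male list, and 3 counts of the 52 regions, the limit that a count of 0 allows, are a share of 5.77%, and the share in the series was 0.0622%. In the lists of equal size, both female lists and no male list held 1 such region. Both B6 lists and no CAST list held 1 region (1.92%, against 3.32%), in an intron of Crcp upstream of Asl. Both CAST lists and no B6 list held 2 regions (3.85%, against 3.62%), at Slc25a15 and Gls2. All lists but female B6 held 3 regions (5.77%, against 4.73%), at Ass1, Asl and Glul, and all lists but female CAST held 1 (1.92%, against 6.85%), at Ass1. Whether any of these shares differs from that of the series was not tested.

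Regions absent from some list were weak where they were present. In the male B6 list the 29 regions found in all lists had a median fold enrichment of 4.13 (range 1.93 to 10.1), and the 14 others had a median of 2.19 (1.64 to 2.61). In the male CAST list the corresponding medians were 4.70 over 29 regions and 2.45 over 16, and in CAST females they were 4.14 over 29 and 3.03 over 6. Fold enrichment divides the summit height by the local background of the same list. With the lists matched in depth, both male lists alone held 3 regions. The highest fold enrichments among the regions present in fewer lists were those of the Gls2 +27.56 kb site described below, with 5.58 and 6.53 in the CAST lists.

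**Figure D2:**
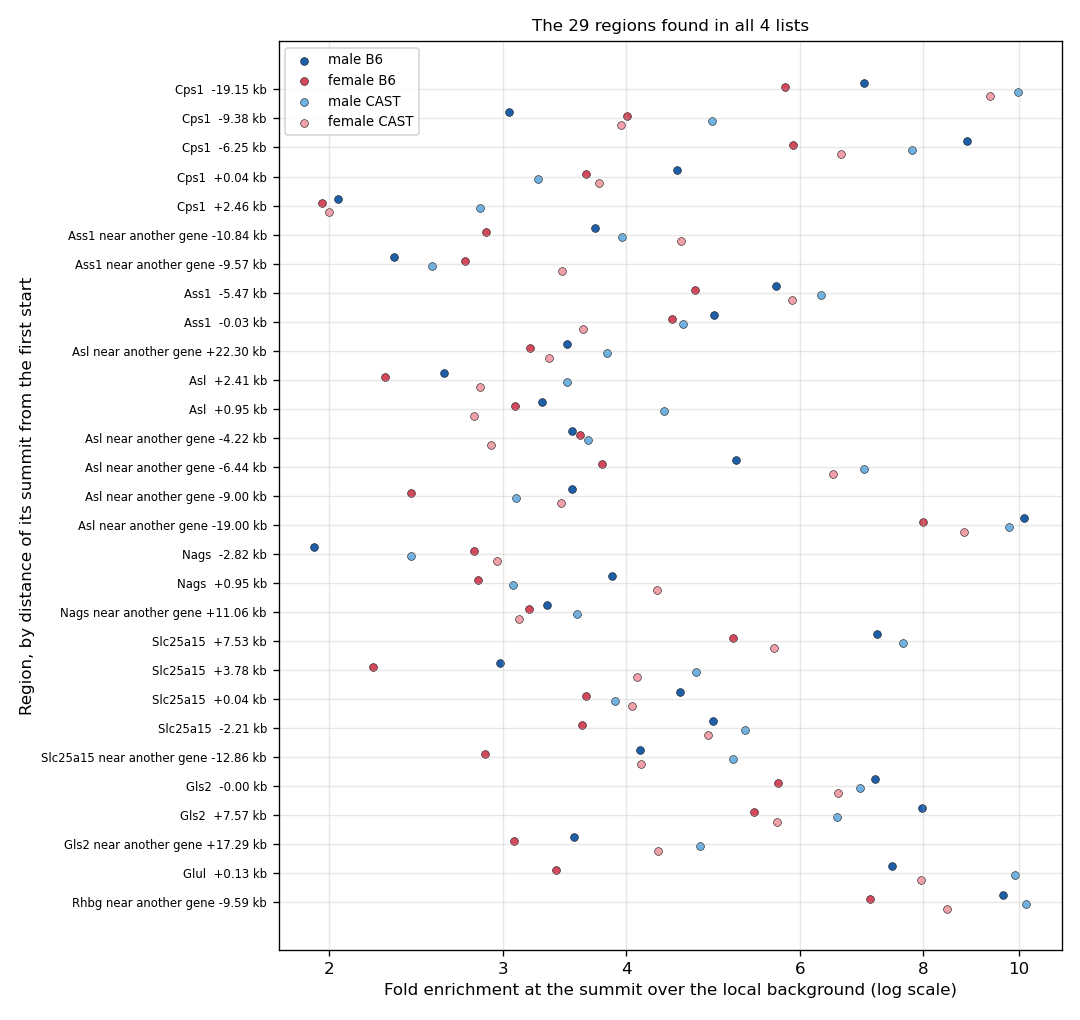
Fold enrichment at the summit, on a log scale, of the 29 regions found in all 4 lists, 1 row per region named by gene and distance from its first start, with a point for each list. Values span 1.93 to 10.2, and the female B6 point of the Glul promoter at 3.40 stands apart from the other 3 lists at 7.43 to 9.91.

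Levels were compared between lists as ratios of fold enrichment at the regions that both lists held, and each ratio was divided by the median ratio over all such regions of the genome. Before this centring the male lists were higher by a median of 1.32 in B6 and 1.19 in CAST, and B6 to CAST medians were 0.947 in males and 0.842 in females. These are shifts of the whole list, and the male to female shift in B6 was smaller among weak regions, at 1.15 over the 5911 weakest against 1.38 over the 5911 strongest. A ratio past 1.5-fold either way is called higher or lower. The 4 comparisons share lists, so that each list enters 2 of them. Reads of each strain were mapped to that strain's own version of mm9, and the part of mapping in the B6 to CAST ratios was not tested.

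Centred ratios at these genes lay near 1. The median male to female ratio was 0.938 over 31 regions in B6 and 0.920 over 34 in CAST, and the median B6 to CAST ratio was 0.962 over 38 regions in males and 1.03 over 29 in females. Male B6 was higher than female B6 at 1 region (2.62% of 23644 regions of the series were) and lower at 4 (2.60%). Without centring the same comparison had 2 higher and 0 lower. Male CAST was higher than female CAST at 0 regions (3.31% of 22764) and lower at 2 (2.56%), and without centring 1 was higher and 0 lower. B6 was higher than CAST at 0 regions in males (4.49% of 29099) and in females (3.42% of 18601), and lower at 2 in males (6.68%) and 2 in females (4.98%). Without centring more regions were lower in each sex. No ratio that was called changed its side of 1 under any scaling tried.

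**Figure D3:**
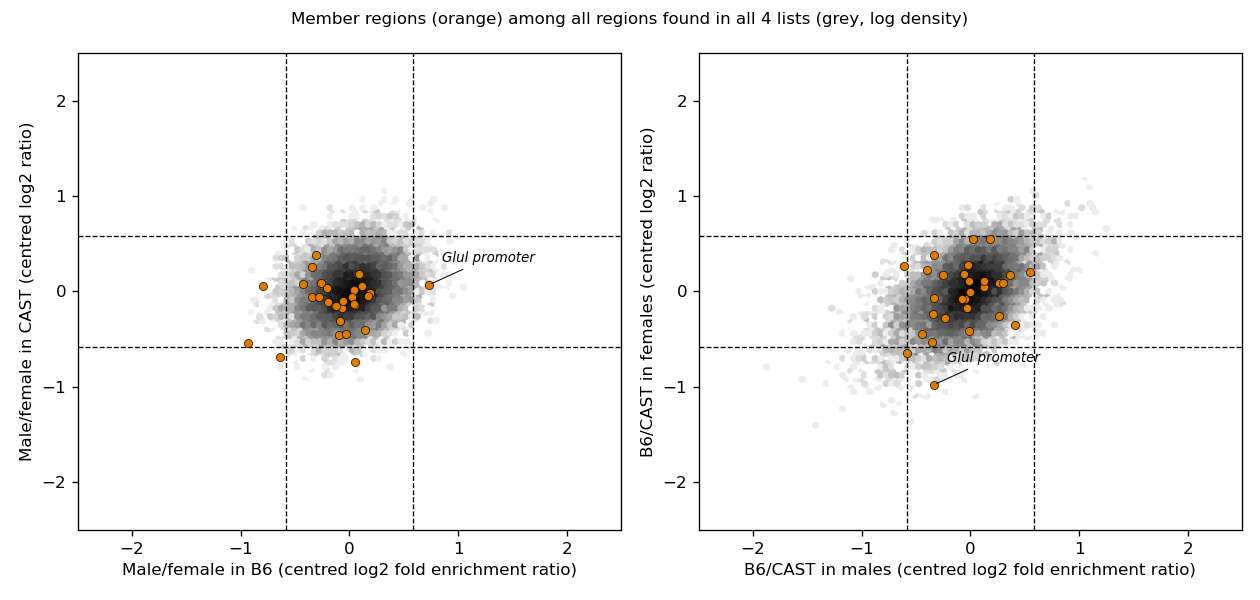
Centred log2 ratios of fold enrichment, male to female in CAST against B6 (left) and B6 to CAST in females against males (right), for the 18309 regions found in all 4 lists (grey, darker where denser) and the 29 at the urea cycle and ammonia genes (orange). Dashed lines mark 1.5-fold, most orange points lie inside them, and the Glul promoter is labelled at 1.66 (male to female in B6) and 0.51 (B6 to CAST in females).

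Cps1 encodes carbamoyl-phosphate synthetase, the mitochondrial enzyme that brings ammonia into the urea cycle and its rate-limiting step. The gene spans chr1:67169600-67277833 on the plus strand, and each of its 9 regions was nearest to its own start. The promoter region (chr1:67169232-67169961), with its summit in the UTR exon, had a fold enrichment of 4.50 in B6 males, 3.64 in B6 females, 3.26 in CAST males and 3.75 in CAST females. The region with the highest −log10 q-value on average over the lists was not the promoter but the intergenic site at −6.25 kb, with a fold enrichment of 8.86, 5.90, 7.79 and 6.61 in the same order. The pileup at its summit was 542 fragments in B6 males, 194 in B6 females, 533 in CAST males and 173 in CAST females. Another intergenic site at −19.15 kb reached 6.96, 5.79, 9.98 and 9.33, above the −6.25 kb site in both CAST lists and below it in both B6 lists. At −19.15 kb the CAST lists were above the B6 list of the same sex, each within the 1.5-fold limit after centring. Without centring the B6 to CAST ratio there was 0.620 in females, past the limit, and 0.697 in males, within it. With the summit pileup divided by the genome-wide background it was 0.618 in females and 0.682 in males. Upstream of Cps1 the open chromatin was thus spread over 3 intergenic sites, and each was found in every list.

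The third of these, at −9.38 kb (chr1:67159981-67160668), was the Cps1 site with ratios past the limit after centring. Its fold enrichment was 3.04 in B6 males, 4.0 in B6 females, 4.89 in CAST males and 3.95 in CAST females, so that male B6 was the lowest. The centred male to female ratio in B6 was 0.58 (95% counting interval 0.46 to 0.73) and the B6 to CAST ratio in males was 0.66 (0.54 to 0.79). When the summit pileup was divided by the genome-wide background in place of the local one, the male to female ratio was 0.78, within the limit, and the B6 to CAST ratio was 0.53. The quantile-normalised B6 to CAST ratio was 0.668, just within the limit. Without centring the male to female ratio was 0.759, within the limit, and the B6 to CAST ratio was 0.622, past it. Both ratios rest on the male B6 list.

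Within the Cps1 gene, a site at +2.46 kb in an intron was found in every list at 2.04, 1.97, 2.84 and 2.00. The sites farther in were weak and found in few lists. Introns held 1 site in B6 males (+34.99 kb, 2.47), 1 in B6 females (+52.38 kb, 2.08) and 1 in CAST females (+32.51 kb, 2.16), and the UTR exon at the 3′ end held a site in both male lists (+107.57 kb, 1.64 in B6 and 1.78 in CAST).

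Nags makes N-acetylglutamate, the activator that carbamoyl-phosphate synthetase needs. Its promoter region (chr11:102006464-102008075) had the highest mean −log10 q-value of the gene, a summit 96 bp from an annotated start and a fold enrichment of 3.87 in B6 males, 2.83 in B6 females, 3.07 in CAST males and 4.30 in CAST females. The centred male to female ratio was 1.04 in B6, with an interval of 0.78 to 1.4 that included 1, and 0.60 in CAST (0.44 to 0.84), the latter past the limit. The ratio by pileup over the genome-wide background was 0.70, within it, and the difference between strains was not tested. The intergenic site at −2.82 kb had 1.93, 2.80, 2.42 and 2.96, with each male list below the female list of its strain. Its male to female ratio was 0.52 in B6 (0.37 to 0.74), past the limit, and 0.69 in CAST, within it. In B6 the ratio was 0.602 after quantile normalisation and 0.559 by pileup over the genome-wide background, both past the limit. Without centring it was 0.689, within the limit. The summit pileup was 71 in B6 males and 69 in B6 females, with a genome-wide background of 15.4 and 13.9.

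Downstream of Nags the regions lay nearest to the neighbouring gene Tmem101. The region at +11.06 kb, 174 bp from a Tmem101 start, was found in every list at 3.12 to 3.57, and 100 bp of it has a copy on another chromosome at 90% identity. Male B6 alone held a weak site in a Tmem101 exon (+9.17 kb, 1.97), and male CAST alone held an intergenic site (+14.34 kb, 2.86). A site in an intron of Lsm12 at +20.77 kb was found in the male lists at 2.38 in B6 and 3.98 in CAST, a centred B6 to CAST ratio of 0.63 (0.41 to 0.95).

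Slc25a15 encodes the carrier that exchanges ornithine and citrulline across the inner mitochondrial membrane. It lies on the minus strand at chr8:23486026-23509093. The promoter had a fold enrichment of 4.54 in B6 males, 3.64 in B6 females, 3.90 in CAST males and 4.05 in CAST females, and the strongest site, in an intron at +7.53 kb, had 7.18, 5.13, 7.63 and 5.64. At neither did a ratio pass the limit.

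A strain difference was seen at the next intronic site, at +3.78 kb (chr8:23504923-23505572). It had a fold enrichment of 2.98 in B6 males, 2.22 in B6 females, 4.70 in CAST males and 4.10 in CAST females, so that each CAST list was above each B6 list. The centred B6 to CAST ratio was 0.64 in females (0.48 to 0.85), past the limit, and 0.67 in males, just within it. By pileup over the genome-wide background the ratio was 0.49 in females and 0.486 in males, and without centring it was 0.541 and 0.633, all past the limit. The comparison in males used other lists than the comparison in females. Farther in, at +13.07 kb, an intronic site was found in both CAST lists (2.1 and 2.28) and in neither B6 list, and at +16.65 kb a site was found in CAST males alone (2.77). Upstream sites at −2.21 kb and at −12.86 kb, in an exon of Mrps31, were found in every list.

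Ass1 joins citrulline and aspartate into argininosuccinate. Its promoter region had a fold enrichment of 4.91 in B6 males, 4.45 in B6 females, 4.57 in CAST males and 3.62 in CAST females. The strongest region was intergenic at −5.47 kb (chr2:31318823-31320748) with 5.67, 4.69, 6.31 and 5.88. No ratio passed the limit at either. A site in a UTR exon of Hmcn2, at −9.57 kb, had 2.33 in B6 males, 2.75 in B6 females, 2.55 in CAST males and 3.44 in CAST females, with each female list above the male list of its strain. Its centred male to female ratio was 0.64 in B6 and 0.62 in CAST, 2 comparisons that share no list. Under quantile normalisation it was 0.72 in B6 and 0.67 in CAST, both within the limit, and by pileup over the genome-wide background it was 0.89 and 0.67, both again within it.

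An intronic Hmcn2 site at −10.84 kb was found in every list at 3.72, 2.88, 3.96 and 4.55. The Ass1 regions not found in every list had fold enrichments of 1.83 to 3.14. The intron held a site in both male lists (+7.45 kb, 1.88 and 2.34), a site in all lists but female CAST (+12.77 kb, 1.83 to 2.41) and a site in CAST males alone (+39.30 kb, 1.98). Beyond the 3′ end a site at +51.66 kb was found in all lists but female B6 (2.26 to 3.14), and a site at +60.27 kb in B6 males alone (2.61). A site in an Hmcn2 exon at −16.62 kb was also found in B6 males alone (2.01).

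Asl splits argininosuccinate into arginine and fumarate. The promoter region (+0.95 kb from the first annotated start and 56 bp from another, in a UTR exon) had a fold enrichment of 3.29 in B6 males, 3.09 in B6 females, 4.37 in CAST males and 2.81 in CAST females. It was far below the region at −19.00 kb, in an intron of the neighbouring gene Crcp, which had 10.1, 7.99, 9.76 and 8.80 and was the strongest of the window. Of the 10 regions, 5 were nearest to a Crcp start and 2 to a Gusb start. The difference between lists that passed the limit after centring was at a weak Crcp intron site (−13.09 kb) found in B6 lists only. It had 1.87 in male and 2.14 in female, a ratio of 0.66 whose counting interval (0.44 to 1.02) included 1. The ratio was 0.85 after quantile normalisation, 0.763 by pileup over the genome-wide background and 0.875 without centring, each within the limit. At −6.44 kb, a Crcp intron site found in every list, the B6 to CAST ratio in females was 0.693 (0.534 to 0.893). It was 0.584 without centring and 0.514 by pileup over the genome-wide background, both past the limit. In males these were 0.783, 0.742 and 0.912. Without centring the male to female ratio of the promoter in CAST was 1.55, past the limit. The site at +16.81 kb was found in both male lists (2.12 and 2.32), and that at +15.01 kb in all lists but female B6 (2.53 to 3.74). The region at +2.41 kb in an exon of Asl has 21 copies in the genome of at least 100 bp at 90% identity or more, and the part of read placement there was not tested.

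Gls2, the liver glutaminase, releases ammonia from glutamine in periportal cells. Its promoter (chr10:127631094-127632107) had a higher fold enrichment in every list than the promoters of the 5 genes above, with a fold enrichment of 7.15 in B6 males, 5.69 in B6 females, 6.90 in CAST males and 6.55 in CAST females. The intronic site at +7.57 kb, 1225 bp from another start of the gene, was similar at 7.98, 5.38, 6.54 and 5.68. No ratio passed the limit at either, and the promoter of Spryd4 at +17.29 kb was found in every list at 3.08 to 4.75. Male CAST alone held a weak intronic site (+5.14 kb, 2.15).

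Downstream of Gls2, the site at +27.56 kb (chr10:127658893-127659351) was open in CAST lists only. It had a fold enrichment of 5.58 in CAST males, with 104 fragments at the summit, and 6.53 in CAST females, with 70. Its −log10 q-values of 41.5 and 32.2 were far above those of the other CAST-only site at Slc25a15 (5.26 and 3.21). No peak of either B6 list overlapped it. No copy of it was found in mm9, and its nearest coding start was that of Mip, at 3818 bp. It remained a CAST-only region in the lists of equal size. The male-only site at +25.78 kb (2.52 and 2.5), a region of 661 bp, holds sequence with 79996 matches elsewhere in mm9 of at least 100 bp. The best of these covered 180 bp at 92.2% identity.

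Glul encodes glutamine synthetase, which captures ammonia in pericentral hepatocytes. Its promoter region (chr1:155746677-155747829), whose summit lies in a UTR exon of Glul and of the overlapping gene 5830403L16Rik, had a fold enrichment of 7.43 in B6 males, 3.40 in B6 females, 9.91 in CAST males and 7.95 in CAST females. The summit pileup was 234, 71, 305 and 126 fragments. The −log10 q-value was 117, 15.5, 187 and 66.8, and these placed the promoter above 88.5%, 57.2%, 93.6% and 91.1% of the peaks of its own list. The female B6 list thus stood apart from the other 3. Its pileup was lower than in CAST females, and its genome-wide background was 13.9 against 7.94. The part of depth in this difference was not tested.

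The centred male to female ratio at the Glul promoter was 1.66 in B6 (95% counting interval 1.28 to 2.22) and 1.05 in CAST (0.85 to 1.31). The B6 to CAST ratio was 0.51 in females (0.37 to 0.68) and 0.79 in males (0.66 to 0.94). In B6, 242 of 23644 regions of the series had a male to female ratio at least as high, and in females, 155 of 18601 had a B6 to CAST ratio at least as low. The male to female ratio in B6 was 1.57 after quantile normalisation, 1.79 by pileup over the genome-wide background and 2.19 without centring, and the B6 to CAST ratio in females was 0.52, 0.41 and 0.43. Both called ratios rest on the female B6 list, in which 4 libraries were pooled, and whether all 4 contributed alike was not tested. The difference between strains in the sex ratio was not tested either.

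The remaining Glul region, at +10.83 kb beyond the 3′ end, was found in all lists but female B6 (2.43 in B6 males, 2.81 in CAST males and 3.03 in CAST females). No region lay in the 20 kb upstream of the Glul start in any list, in contrast to the upstream sites of Cps1 and Ass1.

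**Figure D4:**
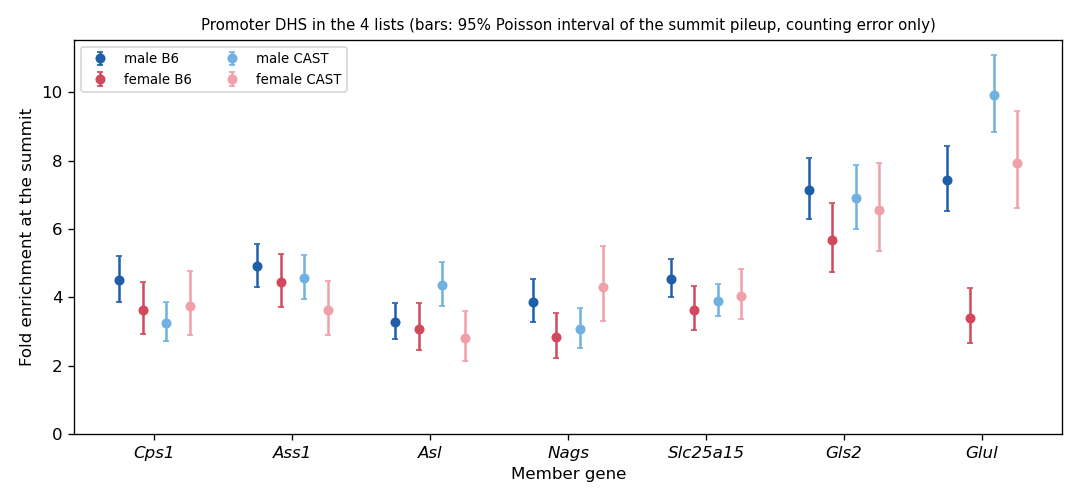
Fold enrichment of the promoter DHS of 7 of the genes in each list. Points are the value of each pooled list and bars the 95% Poisson interval of the summit pileup, which covers counting error only. The Glul bar of female B6 at 3.40 lies below those of the other 3 lists. At Ass1 and Slc25a15 the 4 values lie between 3.62 and 4.91, and they spread more widely at Asl (2.81 to 4.37) and Nags (2.83 to 4.30).

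Rhbg encodes an ammonia transporter of the plasma membrane that is found in pericentral hepatocytes. No list held a DHS within 2.5 kb of its first annotated start, and Rhbg is therefore absent from the plot of promoters. A weak intronic site in CAST males alone (+34.49 kb, 2.23, 33 fragments at the summit) lay 1989 bp from another annotated start of the gene. The strong region at −9.59 kb, found in every list at 9.62, 7.07, 10.2 and 8.45, was at a start of the neighbouring gene 1700021C14Rik, 40 bp away. Which of the annotated starts of Rhbg is used in liver was not tested.

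The position of the summit was close between lists. Over the 29 regions found in all 4 lists, the distance between the outermost summits had a median of 94 bp (21 to 341), against 91 bp over the 18309 such regions of the series.

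Other genes of ammonia and arginine handling were examined in the same way. A list of 13 genes (Slc25a13, Glud1, Oat, Slc38a3, Slc7a2, Slc1a2, Got1, Got2, Car5a, Aqp9, Rhcg, Hal and Sds) had 107 regions, of which every list held 52 and a single list held 30, beside 35.6% and 35.2% of the regions of the series. Male B6 was higher than female B6 at 1 of 60 regions and lower at 0, and male CAST was higher than female CAST at 1 of 59 and lower at 3. B6 was higher than CAST at 5 of 72 regions in males and lower at 4, and in females it was higher at 4 of 52 and lower at 3. The shares of all regions past the limit in these comparisons, given above, were 2.56% to 6.68%. A site of Slc1a2 (+86.9 kb), the glial glutamate transporter that pericentral hepatocytes also carry, passed the limit in the same direction in both sexes. Its fold enrichment was 12.2 in B6 males, 9.07 in B6 females, 7.19 in CAST males and 5.15 in CAST females, a B6 to CAST ratio of 1.79 in males and 2.09 in females. Aqp9, a channel for glycerol and urea, had 14 regions, and Rhcg, another ammonia transporter, had none.

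The promoter patterns most like those of Cps1 and Glul were found by the distance between log2 fold enrichments over the 4 lists, among 9047 and 9046 coding genes with a promoter DHS in every list. For Cps1 these were Tex10 (distance 0.110), Tcfap4 (0.161) and Nr4a1 (0.164). For Glul they were Ttc21b (0.306), Cdcp1 (0.331) and Erp44 (0.336). These genes were selected for their likeness over the 4 lists, and their levels in each list are not further evidence.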

How the data were processed

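DNase-seq was measured in 16 libraries of mouse liver nuclei, grouped by library title into male and female B6 and CAST. The authors mapped unique reads with Bowtie2 to mm9 (B6) or to mm9 carrying CAST variants, with CAST coordinates converted back, pooled the 4 libraries of a group, called peaks with MACS2, and removed blacklisted regions and peaks of duplicated reads. The deposited values per peak are the fold enrichment, a ratio of summit pileup to background with a pseudocount of 1, the −log10 p-value and a score, the −log10 q-value. The q-value score, which depends on depth, was used to order the regions of a gene by its mean over the lists and to set the stricter threshold, and not for ratios between lists.

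Peaks were joined at 1 bp overlap. Genes and starts came from the GENCODE annotation of NCBIM37, the assembly named mm9, and offsets count from the first start of a gene. A region's value in a list is that of its strongest peak. The depth is not stated in the lists. The fold enrichment and p-value together gave the summit pileup, which was whole within 0.02 for 99.86% of peaks in male B6 and for a higher share in the other lists, and the genome-wide background. Summit offsets beyond the peak end (4 peaks in male CAST, 2 in female CAST, 0 at these genes) were held inside the peak. Ratios were centred on the median over all regions in both lists and called past 1.5-fold. Intervals are at 95%, Wilson for shares, exact Poisson for pileups and exact binomial on the 2 summit pileups for ratios. Those of ratios hold the backgrounds and the centring fixed. All cover counting error only. All 8 genes are named, each with its promoter region, its strongest region and every region not found in all lists, beside other regions shown for context. Of the further genes, those past the limit in the same direction in both strains or both sexes are named. Copies were searched with blastn 2.17.0+ (at least 90% identity over 100 bp). Scripts used Python 3.11.15, numpy 2.4.6, scipy 1.17.1, pandas 2.3.3 and matplotlib 3.10.9 and were tested on simulated data. The genes, lists and motifs were chosen with earlier results of these data known. Sequences are from mm9. Alternatives were the joining rule, the peak threshold, the window, matched depth, the centring, the scaling, the measure and the fold limit. Some items are not reported here and enter none of the counts at the genes named.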

Additional observations from a re-analysis of the deposited data

How the results depend on the processing

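No paired analysis was possible because each group was deposited as a single pooled list, and a replicate could not be left out of a pooled list. No called ratio at a single region changed its side of 1, but medians over these regions did. Without centring the median male to female ratio went from 0.938 to 1.24 in B6 and from 0.920 to 1.09 in CAST, and the B6 to CAST median in females from 1.03 to 0.87. By pileup over the genome-wide background the first became 1.1 and the last 0.856, and centring on promoters gave 0.999 for the last. The total of 52 regions became 32 at the stricter threshold, 32 with a window of 5 kb, 79 with 50 kb and 33 by nearest start. The 5 regions of both male lists alone became 3 with an overlap of 50% of both peaks, 0 in lists of equal size, 3 at 5 kb, 8 at 50 kb, 2 with regions nearest to the gene's own start and 3 at matched depth. The 1 region of both B6 lists became 0 at the stricter threshold, in lists of equal size, at 5 kb, by nearest start and at matched depth. The 2 regions of both CAST lists became 1 at the stricter threshold, at 5 kb and by nearest start, and 3 in lists of equal size.

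Of the male to female calls in B6 (1 higher, 4 lower), 2 higher and 0 lower were called without centring, 2 lower after quantile normalisation, 3 higher and 1 lower by pileup over the genome-wide background, 0 and 0 at a 2-fold limit, 1 lower at 5 kb and 2 higher at 50 kb. In CAST (0 higher, 2 lower) there were 1 higher and 0 lower without centring, 1 lower after quantile normalisation, 0 lower at a 2-fold limit and 1 lower at 5 kb. By pileup over the genome-wide background the regions called lower in CAST were others. Ass1 −9.57 kb (0.672) and Nags +0.95 kb (0.702) were then within the limit. Asl +15.01 kb (0.564) and Gls2 +27.56 kb (0.594) were past it. The 2 B6 to CAST calls in males were 1 after quantile normalisation, 1 with an overlap of 50%, 0 at a 2-fold limit and 0 at 5 kb, with 1 higher at 50 kb. The 2 calls in females were 6 without centring, 6 by pileup over the genome-wide background and 0 at a 2-fold limit. The causes were not tested. The part of depth in the shorter female lists was not settled, and the counting intervals leave out the difference between animals.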
